A study of Mus musculus with 6 samples.

Results

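The growth hormone receptor and STAT5 axis was examined in the livers of 6 mice on a high-fat diet, through 10 genes: Ghr, Jak2, Stat5a, Stat5b, Socs2, Cish, Bcl6, Cux2, Igf1 and Igfals. The genes were chosen by symbol, taking every probe set that the array's platform annotation gives to 1 of them. All 10 were measured, by 26 of the 34325 probe sets that name 1 gene, among 18029 genes in all. The study asked which liver transcripts differ when hepatocytes lack RECS1, an older name of the membrane protein gene Tmbim1. The 3 control mice carried the floxed allele (genotype RECS1-flox), and the 3 others (RECS1-HKO, here HKO) lacked RECS1 in hepatocytes only. All 6 were C57BL/6 mice aged 16 weeks that had eaten the high-fat diet for 8 weeks. The Cre line that deletes the floxed allele, the sex of the mice, and the hour and feeding state at dissection were not given in the sources used here. Each array held the RNA of 1 liver, and the labels call the 3 samples of a genotype biological samples.

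Growth hormone is released from the pituitary in pulses and reaches hepatocytes through its receptor, Ghr. The receptor carries the tyrosine kinase Jak2, which phosphorylates the transcription factors Stat5a and Stat5b, and Stat5b is the main form in liver. STAT5 then induces Igf1, the circulating growth factor, and Igfals, the subunit that keeps it in blood, and it induces the inhibitors Socs2 and Cish, which damp the receptor's signal. In rodents the pulses are sharper in males and more continuous in females, and much of the sex difference in liver expression follows from this; Bcl6 is a male-biased repressor of genes that STAT5 binds, and Cux2 a female-biased repressor of male-biased genes.

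The arrays were alike in overall level, with a median probe set between 3.92 and 3.95 (log2 intensity) on each of the 6. The submitters' notes name RMA, which gives all arrays a common distribution, so this likeness is set by the processing. Tmbim1 itself fell in HKO liver from 7.65 ± 0.08 to 7.13 ± 0.07 (mean ± SD, n = 3 each; limma, Benjamini-Hochberg adjusted p = 0.026), and without any 1 array its adjusted p lay between 0.0650 and 0.0967. Hepatocyte markers were bright, all 10 measured being above the median gene, and their median stood between 12.38 and 12.45 in control and between 12.25 and 12.50 in HKO arrays. The Y-linked gene Eif2s3y stood between 6.74 and 7.14 and the X-inactivation transcript Xist between 1.20 and 1.57 on the 6 arrays. No array stood apart from the others. Only 3.56% of genes were as dim as Xist or dimmer, against 79.5% for Eif2s3y, the pattern of male tissue on every array. None of the 10 hepatocyte, 12 macrophage, 11 lymphocyte, 10 endothelial, 10 stellate, 5 cholangiocyte and 5 adipocyte markers measured passed the test. The summed intensity of the cholangiocyte markers lay between 56.3 and 61.3 in control and between 45.5 and 50.6 in HKO arrays, and that of the adipocyte markers between 152 and 175 and between 205 and 454. The higher adipocyte sum came from Cidea, a lipid droplet protein (log2 fold change 2.95 ± 0.54, SE; adjusted p = 0.0549), while Pnpla2, Adipoq, Lep and Retn stood between -0.08 and 0.04 and the median of the 5 was -0.05. All 5 cholangiocyte markers were dim, below the median gene, and had negative values, led by Sox9 (-0.66 ± 0.18; limma adjusted p = 0.171). Their part in the results was not tested. In whole liver, fewer cells of a type and less RNA per cell cannot be told apart.

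None of the 10 genes differed between genotypes past the threshold, an adjusted p under 0.05 over all 18029 genes in limma, which 1.01% of all genes passed. None had an unadjusted p under 0.05 either, against 13% of all genes. Without single arrays there was 1 of the 10 without control 3 (Bcl6), 1 without HKO 1 (Igfals) and 1 without HKO 2 (Cish). In the same fits 11.6%, 11.8% and 12.5% of all genes had an unadjusted p under 0.05. In each of the 10 the values of the genotypes overlapped, whereas 18.7% of all genes had no overlap. The median log2 fold change (HKO minus control) of the 10 genes was -0.03, and that of all genes was -0.00. The genes differed in their spread between mice of 1 genotype. By the brightest probe set of each, the receptor, the kinase, both STAT5 forms, Cux2 and Igf1 had nearly the same value on every array. Socs2, Bcl6 and Cish differed widely between mice of the same genotype. Igfals lay between these, with HKO values spread over 0.48 log2 units.

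**Figure D1:**
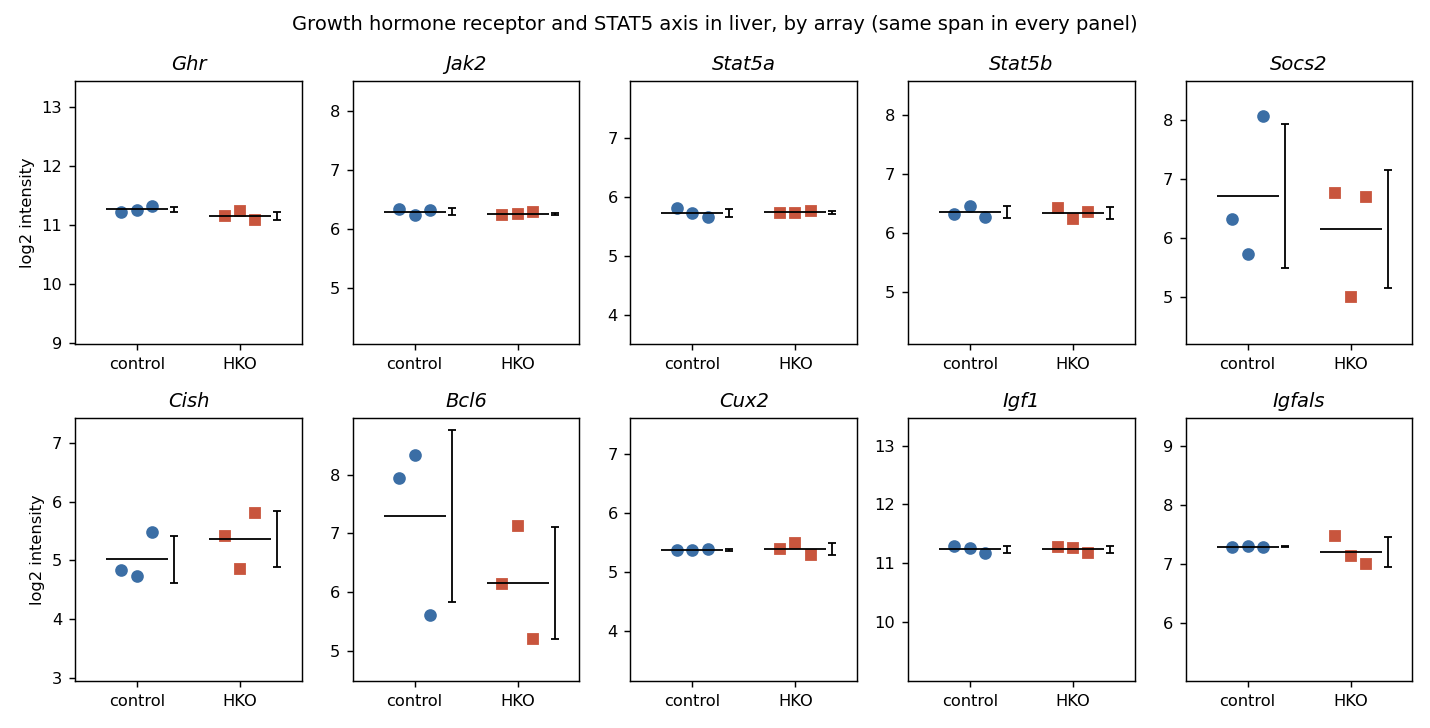
Log2 intensity of the 10 genes (brightest probe set of each) on the 3 control arrays (blue circles) and the 3 HKO arrays (red squares), with the group mean as a line and the SD as the bar beside it; every panel spans the same number of log2 units. Socs2, Cish and Bcl6 scatter within each genotype, with Bcl6 between 5.21 and 8.33. The other 7 genes lie closer to their means, Igfals less so in HKO than in control arrays.

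The receptor was bright and steady. By its brightest probe set, Ghr stood at 11.22, 11.26 and 11.32 in control livers and at 11.15, 11.23 and 11.09 in HKO livers. The HKO mean was the lower one, but HKO 2 lay above control 1. The log2 fold change was -0.11 ± 0.07 (SE; 0.928 times the control level, 95% interval 0.824 to 1.05; limma adjusted p = 0.604). Tested as single probe sets, of which 0.72% of all 34325 passed, none of the 26 passed. At an unadjusted p under 0.05 there was 1 of the 26, against 12% of all probe sets, and it was the dimmest of the 3 for Ghr. That probe set stood at 6.05, 5.93 and 6.02 in control and at 5.84, 5.77 and 5.74 in HKO livers, so the genotypes did not overlap. Its log2 fold change was -0.22 ± 0.08 (SE; 95% interval -0.39 to -0.04; limma unadjusted p = 0.0214, adjusted p = 0.312 over all probe sets). The other bright probe set of Ghr had a log2 fold change of -0.01 ± 0.08. Probe sets without overlap numbered 2 of the 26, against 17.2% of all probe sets, the other being a dim one of Socs2.

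The kinase and the STAT5 genes were level across all 6 livers by their brightest probe sets. Jak2 stood at 6.33, 6.23 and 6.32 in control and at 6.24, 6.25 and 6.28 in HKO livers, a log2 fold change of -0.04 ± 0.07 (SE; adjusted p = 0.862). The 6 values lay within 0.10 log2 units of each other, and only 3.85% of genes had a within-genotype SD as small or smaller. Stat5a stood at 5.81, 5.72 and 5.66 in control and at 5.72, 5.72 and 5.77 in HKO livers (0.01 ± 0.07, adjusted p = 0.980). Stat5b stood at 6.32, 6.46 and 6.27 in control and at 6.43, 6.23 and 6.35 in HKO livers (-0.01 ± 0.09, adjusted p = 0.967), a difference whose sign turned with quantile normalization. The 95% intervals of the fold ran from 0.872 to 1.09 for Jak2, from 0.895 to 1.13 for Stat5a and from 0.863 to 1.14 for Stat5b. The other probe set of each spanned 0.36 log2 units for Jak2, 0.59 for Stat5a, where it was dim, and 0.23 for Stat5b, and none passed. All 3 intervals lie above 0.697 times the control level, the value of Tmbim1. Phosphorylation is not measured by arrays.

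Igf1, the main endocrine product of the axis, did not differ between genotypes past the test by any of its 4 probe sets. The brightest stood at 11.29, 11.26 and 11.17 in control and at 11.28, 11.26 and 11.17 in HKO livers. By this probe set the 6 values spanned 0.12 log2 units and the genotypes were level to within 0.01, with a log2 fold change of -0.00 ± 0.07 (SE; fold interval 0.887 to 1.12; limma adjusted p = 0.994). Its other 3 probe sets had log2 fold changes of 0.08, 0.16 and -0.07 and spanned 0.47, 0.47 and 0.20 log2 units over the 6 arrays, so the steadiness of the brightest was not shared by all, and the sign of the Igf1 difference depended on the probe set and also turned with quantile normalization. Igfals stood at 7.28, 7.31 and 7.29 in control livers and at 7.48, 7.13 and 7.0 in HKO livers. The control values lay within 0.02 log2 units of each other and the HKO values spread over 0.48, with 1 HKO liver above and the other 2 below all controls. The log2 fold change was -0.09 ± 0.12 (SE; adjusted p = 0.804), and 0.01 without HKO 3.

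**Figure D2:**
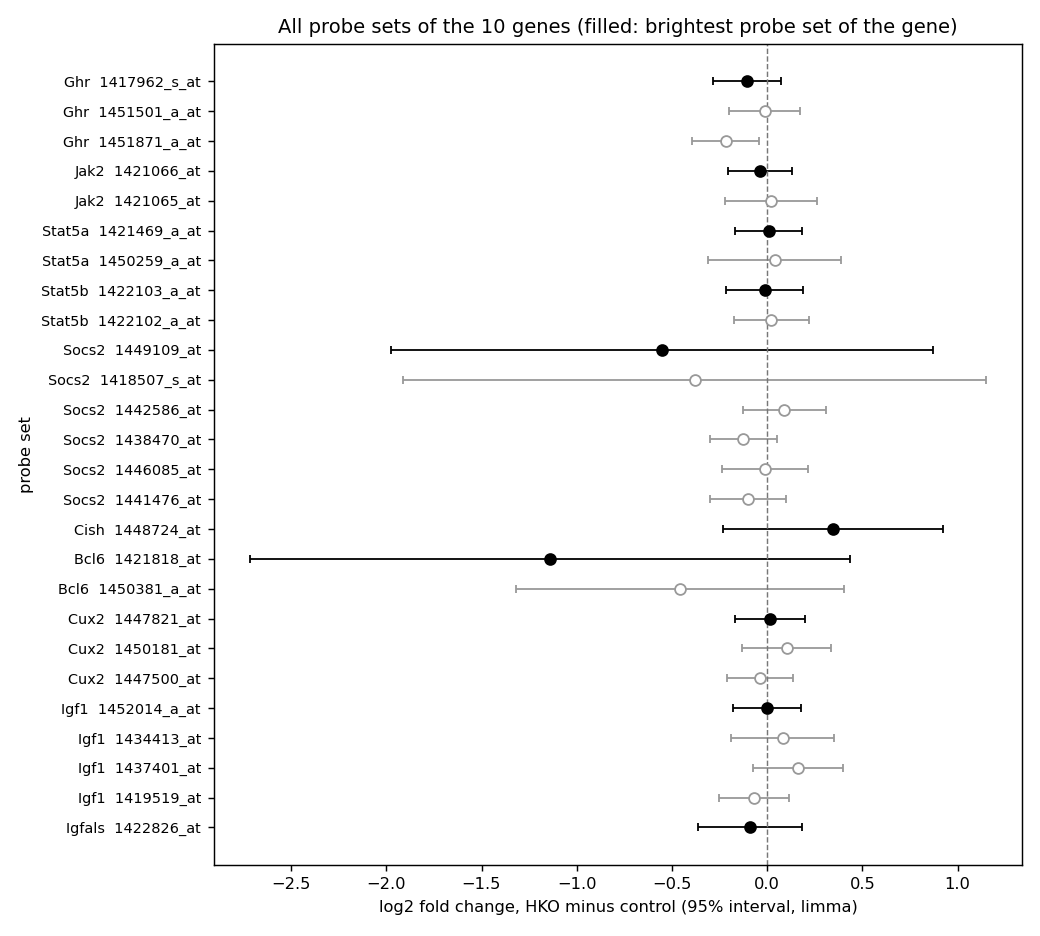
Log2 fold change (HKO minus control) of each of the 26 probe sets of the 10 genes, with its 95% interval from limma; filled points are the brightest probe set of a gene. The widest intervals are those of the brightest pair of Socs2 probe sets, of both Bcl6 probe sets and of Cish, and that of the dimmest Ghr probe set is the single one that does not reach 0.

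Cux2, which female mouse liver expresses and male liver hardly does, did not differ. Its brightest probe set stood at 5.37, 5.37 and 5.39 in control and at 5.39, 5.49 and 5.29 in HKO livers (log2 fold change 0.02 ± 0.08, SE; adjusted p = 0.952). Its other 2 probe sets were dim, at 2.12 and 1.58 in control livers, where only 17.5% and 7.81% of all probe sets were as dim or dimmer. They had log2 fold changes of 0.10 ± 0.10 and -0.04 ± 0.08, neither past the test. No probe set therefore showed a rise of Cux2 past the test, and how much transcript the brightest one reports cannot be read from its brightness, which depends on the probes.

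The feedback inhibitors and Bcl6 differed more between mice of 1 genotype than between the genotypes. Socs2, which binds the activated receptor and limits its signal, stood at 6.32, 5.72 and 8.08 in control livers and at 6.76, 5.0 and 6.70 in HKO livers. Control 3 was the highest and HKO 2 the lowest, 3.08 log2 units apart. Of the other 4, which lay between them, HKO 1 and HKO 3 were above control 1 and control 2. The log2 fold change was -0.55 ± 0.64 (SE; fold 0.681, 95% interval 0.245 to 1.90; limma adjusted p = 0.770), and it was 0.13 without control 3 and 0.02 without HKO 2. Of its 5 other probe sets, the next brightest followed the same order to within 1 place, at 4.74, 4.63 and 6.93 in control and 5.56, 3.79 and 5.80 in HKO livers. The remaining 4 were dim, below the median probe set, and spanned at most 0.32 log2 units over the 6 arrays.

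Cish, an inhibitor of the same family, has 1 probe set. It stood at 4.84, 4.73 and 5.48 in control livers and at 5.42, 4.86 and 5.80 in HKO livers. Control 3, HKO 1 and HKO 3 were the high arrays and control 1, control 2 and HKO 2 the low ones, so each genotype held both. The log2 fold change was 0.34 ± 0.26 (SE; fold 1.27, 95% interval 0.839 to 1.92; limma adjusted p = 0.634), and without single arrays it ran from 0.12 to 0.59.

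Bcl6, a zinc finger repressor that growth hormone lowers in liver, stood at 7.95, 8.33 and 5.62 in control livers and at 6.15, 7.12 and 5.21 in HKO livers. Control 1 and control 2 were the highest, followed by HKO 2, and HKO 3 was the lowest, just under control 3. The log2 fold change, -1.14 ± 0.71 (SE; fold 0.454, 95% interval 0.146 to 1.41; limma adjusted p = 0.560), was the largest of the 10 genes and within the spread between mice; without single arrays it ran from -1.98 to -0.62. The other probe set of Bcl6 gave the same order of the 6 livers, at 4.68, 5.14 and 3.52 in control and 3.95, 4.44 and 3.57 in HKO livers, except that HKO 3 and control 3 changed places. Of all 18029 genes, 6 had a larger within-genotype SD than Bcl6 (1.24 log2 units), 9 a larger one than Socs2 (1.12) and 180 a larger one than Cish (0.439), against a median of 0.115.

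**Figure D3:**
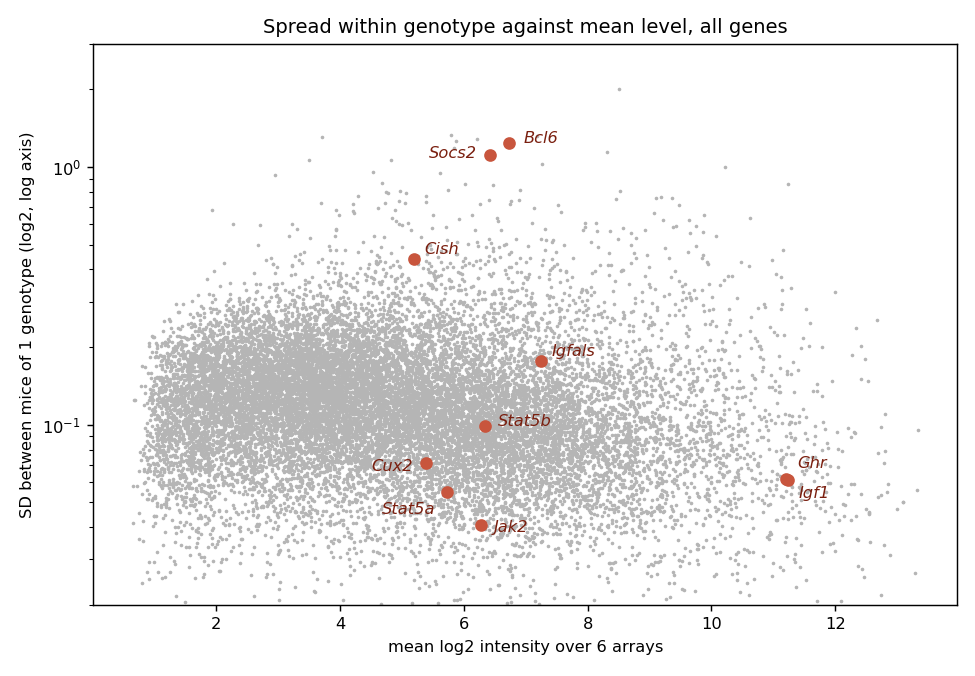
SD between mice of 1 genotype (log2 units, on a log axis) against the mean log2 intensity over the 6 arrays, for 17960 genes as grey points, with the 10 genes of the axis in red; 69 genes with an SD under 0.02 lie outside the axis. Bcl6, Socs2 and Cish lie at or near the top edge of the cloud, and Jak2, Stat5a, Cux2, Ghr and Igf1 lie in its lower part.

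The livers with much Cish were the livers with little Bcl6. The order of the 6 arrays by Cish was exactly the reverse of their order by Bcl6 (Spearman's rho = -1, exact permutation p = 0.0028; Pearson's r = -0.964, exact permutation p = 0.0042, n = 6 arrays, two-sided). All 45 pairs of the 10 genes were compared in this way. After Benjamini-Hochberg adjustment over the 45, the Cish and Bcl6 pair had a p of 0.188 for r and 0.125 for rho. No pair was below 0.05. With 720 orderings the smallest exact permutation p that 6 arrays can give is 0.00139. A single pair could therefore not fall below 0.05 after adjustment over the 45, so the adjusted test cannot decide on 1 pair. The relation did not rest on the extreme arrays, as r was -0.940 without control 2 and HKO 3, and -0.957 over deviations from the genotype means; with 3 arrays each, no value within 1 genotype was computed. Socs2 ran with Cish (r = 0.680, exact permutation p = 0.143, adjusted p = 0.862; rho = 0.657, exact permutation p = 0.175, n = 6) and against Bcl6 (r = -0.642, exact permutation p = 0.163, adjusted p = 0.862; rho = -0.657, exact permutation p = 0.175, n = 6), neither past the test. For these 2 pairs r was 0.844 and -0.865 without control 3 and HKO 2. Over deviations from the genotype means r was 0.934 and -0.941.

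Control 3 and HKO 3, the arrays with the lowest Bcl6, also stood apart on the second principal component of all genes, which held 16.8% of the variance, at -11.03 and -13.33 against 2.57 or more for the other 4. Lymphocytes also express Bcl6, and the median of the 11 lymphocyte markers, 9 of them below the median gene, lay between 3.78 and 4.06 in control and between 3.90 and 3.95 in HKO arrays, highest in control 2 and lowest in control 3. The summed intensity of these markers lay between 231 and 327 in control and between 252 and 308 in HKO arrays. The part of either in the spread of Bcl6 was not tested.

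The sequences around the start sites of Cish and Bcl6 are shown because these genes varied in opposite directions and STAT5 and Bcl6 proteins are known to bind similar motifs. They come from RefSeq (build GRCm38.p6), which gave windows for 9 of the 10 genes, 16 windows in all; Socs2 was not matched. The motif TTCNNNGAA, the core that STAT5 dimers bind and its own reverse complement, so that 1 search covers both strands, was searched in windows of 300 bases, from 250 before a start to 50 after it. It was found in 5 of the 16 windows, belonging to Cish, Bcl6 and Igfals, and in 8.30% of all 32851 windows. Each window below is cut to 280 bases, 5′ to 3′ on the gene's strand, with the start after base 250 and the motif in capitals.
Cish, chr9:107296409-107296688, + strand: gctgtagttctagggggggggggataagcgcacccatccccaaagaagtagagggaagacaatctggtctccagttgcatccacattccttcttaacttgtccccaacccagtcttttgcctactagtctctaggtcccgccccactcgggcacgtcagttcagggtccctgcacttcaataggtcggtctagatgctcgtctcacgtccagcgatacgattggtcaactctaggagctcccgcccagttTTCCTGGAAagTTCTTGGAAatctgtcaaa
Bcl6, chr16:23981254-23981533, - strand: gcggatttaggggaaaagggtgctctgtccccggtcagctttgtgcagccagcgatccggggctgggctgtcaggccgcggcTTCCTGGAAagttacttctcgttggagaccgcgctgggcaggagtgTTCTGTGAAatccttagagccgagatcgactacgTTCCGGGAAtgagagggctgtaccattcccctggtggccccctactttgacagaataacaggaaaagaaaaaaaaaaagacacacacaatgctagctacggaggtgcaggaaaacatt
Bcl6, chr16:23988823-23989102, - strand: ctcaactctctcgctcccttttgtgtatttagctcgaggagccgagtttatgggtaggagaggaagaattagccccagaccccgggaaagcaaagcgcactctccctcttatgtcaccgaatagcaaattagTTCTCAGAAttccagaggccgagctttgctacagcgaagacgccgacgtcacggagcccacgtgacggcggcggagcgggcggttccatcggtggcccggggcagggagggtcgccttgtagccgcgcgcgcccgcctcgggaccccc
In Cish the pair of matches begins at bases 1 and 12 from the start. The first Bcl6 window holds 3 matches, beginning 168, 122 and 88 bases before its start, and the second holds 1, beginning 118 bases before. Windows with 2 or more matches made up 0.457% of all, and those with 3 or more 0.0335%. A match is a run of letters and does not show that a protein binds there.

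The genes closest to Bcl6 in pattern were sought as those with the smallest root mean square distance over the 6 arrays, after each gene's control mean was subtracted, among the 9013 other genes above the median gene. The nearest were Slc8a1, a sodium-calcium exchanger (distance 0.608 log2 units), Slc22a7, an organic anion transporter of hepatocytes (0.647), and Il6ra, the interleukin-6 receptor chain (0.697). Slc22a7 stood at 8.41, 8.34 and 7.37 in control and at 7.26, 7.55 and 6.75 in HKO livers. As with Bcl6, HKO 3 was the lowest array for all 3. The search selects for such likeness, so it is not independent evidence of a link.

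The same search for Socs2 and Cish was added after their values were seen. Nearest to Socs2 were Slc25a30, a mitochondrial carrier (0.448), Onecut1, the liver transcription factor HNF-6 that growth hormone is known to induce (0.524), and Smim22, a small membrane protein (0.628). Onecut1 stood at 4.93, 5.29 and 7.21 in control and at 6.70, 4.56 and 6.33 in HKO livers. Its highest value was in control 3 and its lowest in HKO 2, as for Socs2, a likeness for which the search selected it. Nearest to Cish were Igfbp3, the main carrier of Igf1 in blood (0.145), Wee1, a kinase that holds back mitosis (0.149), and Rflna, a filamin-binding protein (0.154). Igfbp3 stood at 5.09, 5.26 and 5.92 in control and at 5.61, 5.32 and 6.01 in HKO livers.

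**Figure D4:**
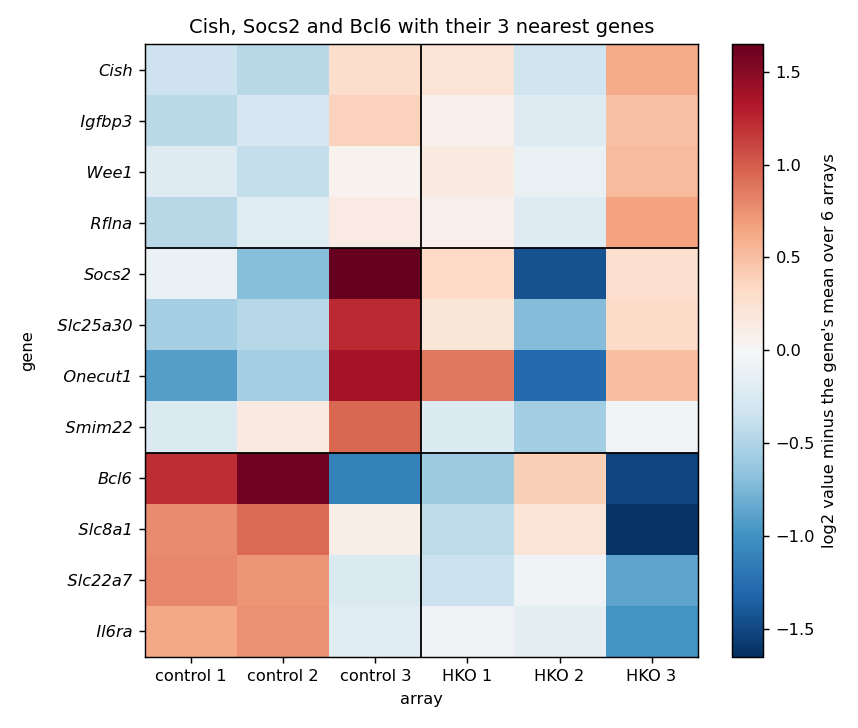
Log2 value minus the gene's mean over 6 arrays (colour) for Cish, Socs2 and Bcl6, each above its 3 nearest genes, on the 3 control and 3 HKO arrays. Cish and its neighbours are high in control 3 and HKO 3, where Bcl6 is lowest, and Socs2 and Onecut1 are highest in control 3 and lowest in HKO 2.

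Other genes of the pathway were counted from lists. Of 13 measured related receptors, Janus kinases and STATs, which relay cytokines and other hormones, none passed, 11 had negative values, against 51.2% of all genes, and the median log2 fold change was -0.16, against -0.00 for all genes. Stat2, a partner of interferon signalling, stood at -0.36 ± 0.09 (SE; limma adjusted p = 0.133) and Stat6, which relays interleukin-4, at -0.32 ± 0.08 (0.138). Of 18 other inhibitors of cytokine receptor signalling none passed (median -0.01), with Socs3, which is known for damping interleukin-6 signals, at -0.59 ± 0.16 (0.164) and Socs7 at -0.27 ± 0.09 (0.252). Of 13 adaptors and kinases downstream of the receptor none passed (median 0.01), with Irs2, an insulin receptor substrate, at -0.33 ± 0.10 (0.199) and Src at 0.21 ± 0.09 (0.396). At an unadjusted p under 0.05, which 13% of all genes had, there were 5 of the 13 receptors, kinases and STATs, 3 of the 18 inhibitors and 1 of the 13 adaptors.

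Of 15 other genes of the IGF system 1 rose and none fell (median -0.05), where 0.56% of all genes rose and 0.449% fell. Igfbp1, a binding protein that insulin represses, stood at 9.12, 9.37 and 9.50 in control and at 10.25, 10.25 and 10.61 in HKO livers, with no overlap. It rose by 1.04 ± 0.13 (SE; limma adjusted p = 0.0123) and had an adjusted p of 0.0535 without control 2. Igfbp6 stood at -0.56 ± 0.10 (adjusted p = 0.0540) and Igfbp2 at -0.59 ± 0.16 (0.168). Of 14 liver transcription factors tied to growth hormone or sex patterns none rose and 1 fell (median -0.02). Foxa3, a forkhead factor of hepatocytes, fell by 0.82 ± 0.12 (0.0257). Its adjusted p was 0.0989, 0.0999 and 0.0607 without control 1, 2 and 3 and 0.0605 without HKO 2. Nr1i3, the xenobiotic receptor CAR, stood at 0.52 ± 0.10 (0.0616) and the repressor Nr0b2 at -0.69 ± 0.14 (0.0703).

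Sex-biased liver genes, whose pattern growth hormone sets, and a list of lipid genes were counted beside the axis. The sex-biased lists were chosen when their shift in these livers was already known. The lipid list was also chosen with earlier results of these data known. The direction of these genes is therefore not independent evidence. Of 14 measured male-biased genes 7 fell and none rose, with a median log2 fold change of -1.54, against 0.449% of all genes that fell. Of 15 measured female-biased genes 7 rose and none fell, with a median of 0.92, against 0.56% of all genes that rose. The full lists named 18 male-biased and 23 female-biased genes. The female-biased shift was not uniform. Sult1e1, Fmo2, Sult3a1, Cyp3a16 and Cyp3a44 stood between 0.05 and 0.17 without passing, all but Fmo2 being dim. The steepest were Moxd1, a monooxygenase-like gene, which fell by 5.11 ± 0.44 (SE; limma adjusted p = 0.00171), and Cyp2b9, a cytochrome P450, which rose by 6.28 ± 0.20 (4.48e-06). Bcl6, itself male-biased, stood at -1.14, within the spread between mice (limma adjusted p = 0.560). Cux2, itself female-biased, stood at 0.02 (limma adjusted p = 0.952). Of 12 lipid genes that are known to rise in mouse liver without STAT5, 4 rose and none fell, with a median of 0.59: Vldlr, a lipoprotein receptor, by 0.94 ± 0.09 (0.00256), Mogat1, an acyltransferase, by 2.34 ± 0.26 (0.00554), Cd36, a fatty acid transporter, by 1.61 ± 0.20 (0.0113), and the nuclear receptor Pparg by 1.00 ± 0.15 (0.0246). The adjusted p of Cd36 was 0.0608 without control 2, 0.0539 without control 3 and 0.0781 without HKO 1. That of Pparg lay between 0.0518 and 0.115 without any 1 array but HKO 2, and was 0.0118 without HKO 2. Without single arrays the count that fell among male-biased genes ran from 5 to 10, that which rose among female-biased genes from 5 to 9, and that among the lipid genes from 2 to 5. The highest of each was reached without HKO 2. The lipid count was 2 without control 2, control 3 or HKO 1.

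**Figure D5:**
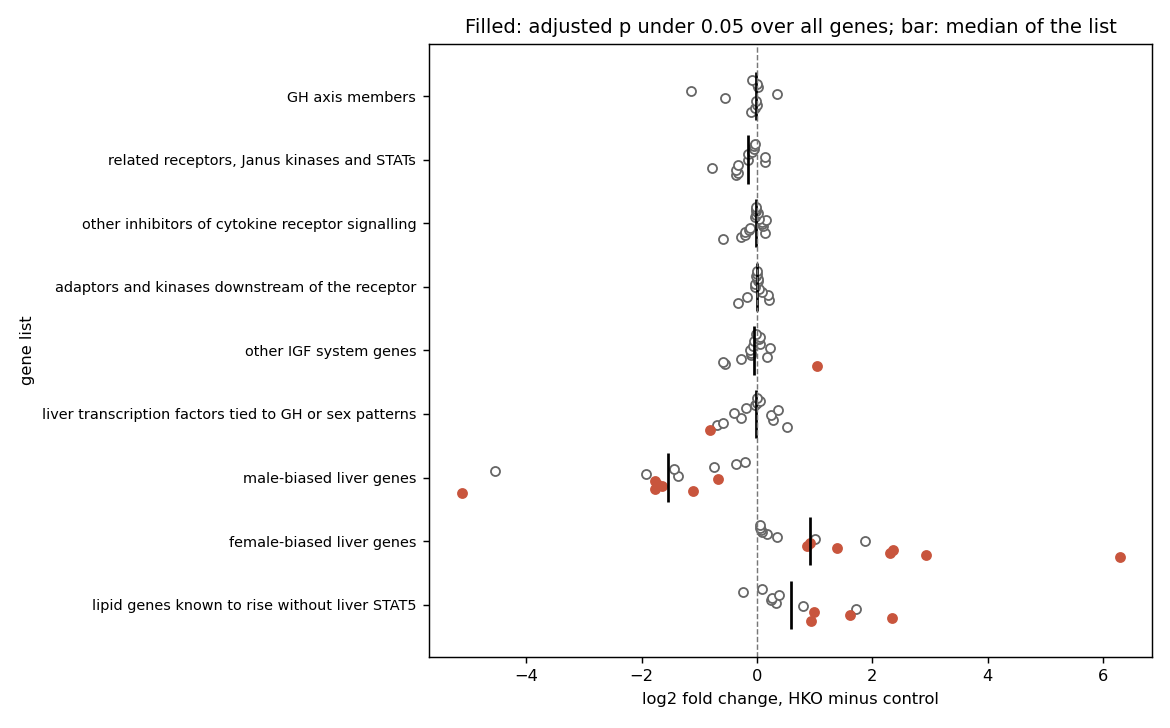
Log2 fold change (HKO minus control) of each gene in the 10-gene axis and in 8 other lists, with the median of a list as a bar; filled red points passed an adjusted p under 0.05 over all genes. The axis has a median of -0.03 and the related receptors, Janus kinases and STATs one of -0.16, while the male-biased list has a median of -1.54 and the female-biased list one of 0.92.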

How the data were processed

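Total RNA of 6 livers was hybridised to Affymetrix arrays. The authors deposited log2 intensities of 38208 probe sets; the submitters' processing notes name RMA and limma, without versions or settings. RMA gives all arrays a common distribution and shrinks fold changes of dim probe sets. By the platform annotation 34325 probe sets had 1 gene symbol, 62 several and 3808 none, and 13 were controls. A gene (18029 in all) took the values of its brightest probe set, by the mean of the 6 arrays. The test was limma 3.58.1 (R 4.3.3; lmFit and eBayes, two-sided, with genotype as the only term), p-values being adjusted by Benjamini-Hochberg over all genes, and a separate fit covered all single-gene probe sets. It was checked on simulated data. An exact permutation test of 3 against 3 cannot give a p under 0.1, so none was run on genotypes. The number of arrays limits the precision.

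The 10 genes and all lists were chosen with earlier results of these data known. The rule for named genes took the 10 genes, Tmbim1, up to 6 members past the threshold and the 2 lowest p of the rest in each list, and the 3 genes nearest to the axis gene of lowest p. Sex-biased and marker lists are given by counts, with fewer names. Alternatives were quantile normalization, median centring, leaving out dim genes, other probe set choices, eBayes options, array weights, a replicate block, other thresholds and leaving out each array.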

Additional observations from a re-analysis of the deposited data

How the results depend on the processing

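No gene and no probe set of the axis passed under any alternative run, thresholds of 0.01 and 0.1 included; over 150 refits of the 10 genes the smallest adjusted p was 0.145 (limma). The sign turned in 15 of these refits, all in values far from the threshold. Under quantile normalization it did so for Stat5b (0.00736) and Igf1 (0.0312), and with the median of a gene's probe sets for Stat5b (0.00459) and Igf1 (0.121). Without 1 array the log2 fold change ran from -0.0267 to 0.0456 for Stat5a, -0.0582 to 0.0426 for Stat5b, -1.05 to 0.132 for Socs2, -0.0331 to 0.0662 for Cux2, -0.0370 to 0.0325 for Igf1, -0.229 to 0.0111 for Igfals and -0.181 to 0.0170 for Eif2s3y. The 182 genes that passed in all became 78 to 161 without 1 array, 65 at 0.01 and 344 at 0.1. The replicate block gave 125 genes and none of the axis at an adjusted p under 0.05, and Tmbim1 did not pass in it (limma adjusted p = 0.0828). At an unadjusted p under 0.05 it held 2 of the 10 genes, Bcl6 and Cish, against 12.6% of all genes. Their limma adjusted p-values in it were 0.145 and 0.284. Same-numbered arrays did not deviate together throughout (correlations of deviations -0.09, 0.07 and 0.11), so the numbers were not treated as pairs. For Socs2, Bcl6 and Cish the 3 arrays a group leave intervals too wide to show a change of the size seen for Tmbim1. The fold intervals of Socs2 and Bcl6 reached below the 0.697 of Tmbim1. That of Cish, 0.839 to 1.92, lay above it but reached as large a rise. The alternatives for single probe sets and for genes outside the axis were added after the data were seen.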
